A study of Mus musculus with 9 samples.

Results

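The transcripts of 9 mouse genes, Cd5l, Alox15, Btla, F5, Timd4, Gata6, Icam2, Prg4 and Saa3, were followed in the infarct border zone of the heart. They were picked by name out of 53465 gene IDs, as genes typical of the macrophages of the peritoneal and pericardial cavities, with Btla added because it had moved like Cd5l and Alox15 in these libraries. Levels of these genes in these libraries were known when they were picked. Their own values below are therefore a description. They were part of the fit over all genes, but its p-values are not used as evidence for them, and whether they passed is given only as a count or where a fit without some library changes it. All 9 had enough reads to enter the fit over 13825 genes.

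Serous cavities such as the peritoneum and pericardium hold resident macrophages that depend on the transcription factor GATA6 and on retinoic acid made by neighbouring mesothelial cells. These macrophages carry the surface molecules ICAM2 and, in the long-lived part of the population, TIM4, and they clear dying cells. The fluid-filled space around the heart brings such macrophages next to the epicardium, which is itself a mesothelial layer.

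All hearts came from NOD-SCID mice, an immunodeficient strain without mature T and B lymphocytes. Of the 9 libraries, 3 came from sham-operated hearts, 3 from hearts whose coronary artery had been tied off, called ligation here, and 3 from ligated hearts into which cells named FOXO3-GE-MPCs were implanted, called ligation plus cells. The labels give the same region for all 3 groups and state neither age, sex, time after surgery nor the origin of the implanted cells. The study asked how the border zone differed after the implantation. Of the groups analysed here none received control cells, so implanted cells as such and these cells in particular cannot be told apart.

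Gene counts per library ran from 4549268 to 7515052, and 3 counts, the level taken as the limit of detection, equalled 0.375 to 0.639 CPM (counts per 1000000 gene counts, scaled with TMM factors, which correct library totals for a few very abundant genes). The header names of sham replicates 1 and 2 begin alike, as do those of ligation replicates 2 and 3, so these pairs may share a source; their counts differed by more than sampling noise. Nothing in the labels says that replicates were separate animals, so errors and p-values measure the spread between these libraries only. The heart muscle gene Myl2 averaged between 4192 and 8704 CPM in the 3 groups, while the lymphocyte markers Ms4a1 and Cd3d had 0 counts in all 9 libraries. With library totals alone in place of TMM factors, the share of called genes that were higher after ligation than in sham changed from 52.7% to 78.7%, with a shift of the median gene by 0.19 on the log2 scale. In ligation plus cells against ligation that share changed from 42.4% to 31.99%, and the median gene shifted by -0.03.

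The 9 genes did not behave as 1 set. Cd5l and Alox15 had 0 counts in every sham library, means of 9.02 and 7.11 CPM after ligation, and low levels again with cells. Btla and F5 followed the same course at lower levels. Timd4 overlapped between sham and ligation and was lower with cells. Gata6 and Icam2 were already high in sham, at 47.5 and 74.8 CPM, Icam2 being lower and Gata6 higher after ligation. Prg4 and Saa3 were higher after ligation, and with cells Prg4 was in between while Saa3 was higher still.

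**Figure D1:**
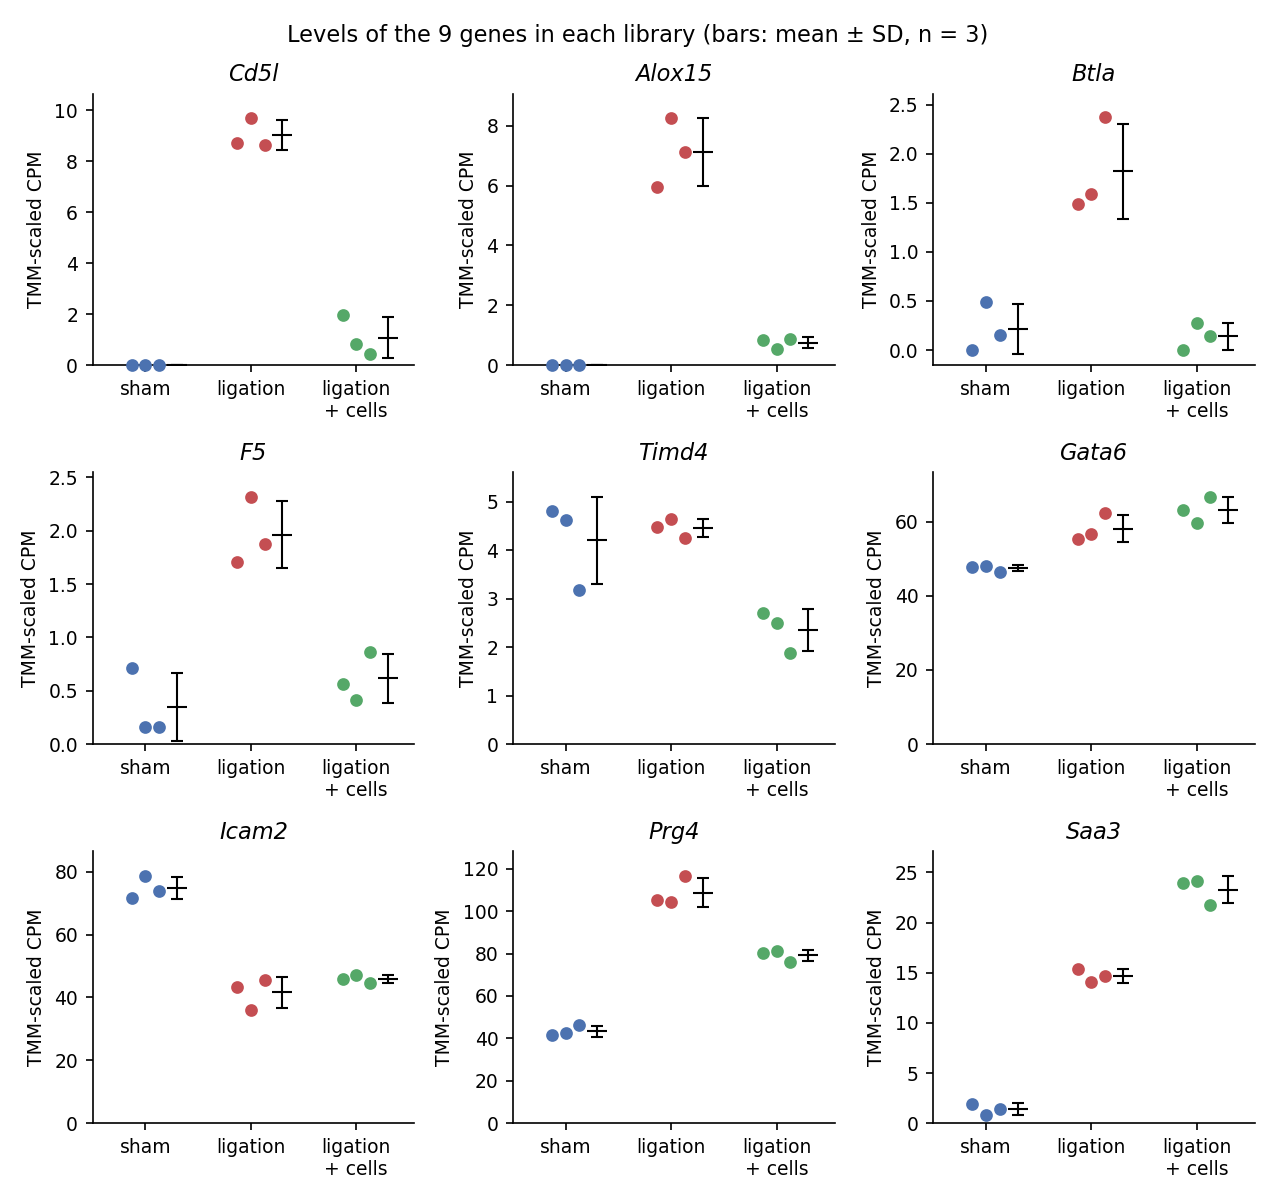
TMM-scaled CPM of each of the 9 genes in each library (points), with the mean and SD of 3 libraries beside them, for sham, ligation and ligation plus cells. Cd5l and Alox15 stay at 0 in sham and peak after ligation, Icam2 is highest in sham at 74.8 CPM, and Saa3 is highest with cells at 23.3 CPM.

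Counted over the fit, 8 of the 9 genes passed an edgeR adjusted p of 0.05 in ligation against sham, 7 higher and 1 lower, where 38.2% of all tested genes passed. In ligation plus cells against ligation 6 passed, 1 higher and 5 lower, where 9.87% of all genes passed. In ligation plus cells against sham 7 passed, 5 higher and 2 lower, where 40.9% did. These comparisons share libraries and were among the values by which the genes were picked, so nothing is read from the counts. The CPM ranges of ligation and sham were apart for 8 of 9 genes, against 47.6% of all tested genes. Those of ligation plus cells and ligation were apart for 7 of 9, against 27.2%, and those of ligation plus cells and sham for 7 of 9, against 49.8%.

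Cd5l encodes a secreted scavenger receptor family protein, also known as apoptosis inhibitor of macrophages, made mainly by tissue-resident macrophages. It lies on chromosome 3 from 87357881 to 87371073, plus strand (ENSMUSG00000015854, GRCm38). It had 0 counts in each sham library, 41, 67 and 69 counts in ligation replicates 1, 2 and 3, and 14, 6 and 3 counts with cells. As levels these were 8.74, 9.69 and 8.63 CPM after ligation and 1.99, 0.832 and 0.432 CPM with cells. The 3 groups did not overlap, and among the libraries with cells replicate 1 was well above the other two, the lowest being at the limit of detection. Set against the highest limit of detection in sham, the ligation mean of 9.02 ± 0.588 CPM (SD, n = 3) was at least 16.9-fold higher. The mean was 1.08 ± 0.807 CPM with cells, 8.32-fold lower than after ligation. The fitted log2 difference between cells and ligation was -3.03 (SE 0.364), and it ran from -3.79 without cell replicate 1 to -2.67 without cell replicate 3.

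The RefSeq promoter of Cd5l (GRCm38.p6, 250 bases before to 49 after the start base, plus strand, chr3:87357631-87357930) is shown because no transcript was counted in sham. Capitals mark GATA motifs, meaning AGATAA or its variant with T first, TGATAA, and likewise the variants ending in G, AGATAG beside that spelled TGATAG, on either strand:
Cd5l: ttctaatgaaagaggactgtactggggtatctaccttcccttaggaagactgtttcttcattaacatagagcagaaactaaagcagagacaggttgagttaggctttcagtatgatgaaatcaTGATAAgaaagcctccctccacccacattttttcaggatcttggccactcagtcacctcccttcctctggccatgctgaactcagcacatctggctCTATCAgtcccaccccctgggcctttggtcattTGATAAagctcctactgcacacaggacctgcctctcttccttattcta
It holds 3 GATA matches, whose first bases are at positions -127, -31 and 2 relative to the start base at 0. Of 32851 RefSeq promoters of the same length, 29.8% hold at least 1 such match and 1.76% hold 3 or more. A match to the STAT6 motif, TTC and GAA with a gap of 4 bases, begins at position -250, and 6.95% of promoters hold one. The unit of retinoid receptor sites, AGGTCA, which 16.3% of promoters hold, was not found in this window. A match of letters does not show that a factor binds there.

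CD5L is taken up through the fatty acid transporter CD36 and binds fatty acid synthase. Fasn, the synthase, rose from 41.05 ± 0.881 CPM (SD, n = 3) in sham to 141.5 ± 8.54 after ligation (log2 1.79, SE 0.0674, adjusted p = 2.48e-14, edgeR) and stood at 240.2 ± 11.6 with cells. Fasn was thus highest with cells, where Cd5l was low. Cd36 was at 1962 ± 93.1 CPM in sham, 1300 ± 71.7 after ligation and 1594 ± 38.9 with cells, so it was lowest where Cd5l was highest. Fasn and Cd36 belong to a list of 10 binding partners and signalling genes of the 9 proteins, of which 9 were tested. In ligation against sham 5 rose and 1 fell, and with cells against ligation 2 rose and 3 fell. Across all tested genes 20.1% rose and 18.0% fell in the first comparison, and 4.19% rose and 5.69% fell in the second.

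Alox15 encodes the 12/15-lipoxygenase, which oxidises arachidonic and linoleic acid and is a hallmark of resident peritoneal macrophages and eosinophils. The gene is on chromosome 11 from 70344152 to 70352031, minus strand (ENSMUSG00000018924). Sham libraries had 0 counts, ligation libraries 28, 57 and 57, and libraries with cells 6, 4 and 6. The levels were 5.97, 8.25 and 7.13 CPM after ligation and 0.851, 0.555 and 0.864 CPM with cells. Every ligation library was above every library with cells, and those with cells were close to the limit of detection. Means were 7.11 ± 1.14 CPM (SD, n = 3) in the ligation group, at least 13.3-fold above the limit in sham, and 0.757 ± 0.175 CPM with cells, 9.40-fold lower. The fitted log2 difference between cells and ligation was -3.22 (SE 0.352).

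Of 12 other lipoxygenase, cyclooxygenase and leukotriene genes, 8 were tested. In ligation against sham 3 rose and 1 fell, and in ligation plus cells against ligation 1 rose and 2 fell, with median log2 differences of -0.13 and -0.19, beside 0.01 and 0.00 over all genes. The 2 that fell with cells were 0 without ligation replicate 2 or without cell replicate 1 or 2. Ptgs2, the inducible cyclooxygenase, rose from 2.02 ± 0.602 CPM (SD, n = 3) in sham to 5.91 ± 0.780 after ligation (log2 1.55, SE 0.288, adjusted p = 0.000211, edgeR). Alox5, the 5-lipoxygenase of leukotriene synthesis, did not share the course of Alox15: it fell from 10.6 ± 1.31 CPM in sham to 5.36 ± 1.41 after ligation (log2 -1.01, SE 0.230, adjusted p = 0.00147, edgeR). With cells it fell further, to 2.78 ± 0.572 CPM (log2 -0.91, SE 0.274, adjusted p = 0.0397, edgeR). That last call was lost in 8 of 18 alternative fits, with edgeR or DESeq2 adjusted p from 0.0523 without cell replicate 2 to 0.157 without cell replicate 1. It was also lost without ligation replicate 1 or 2 or cell replicate 3, at edgeR adjusted p = 0.114, 0.152 and 0.0717. Alox8, a lipoxygenase best known from skin, rose with cells from 0.845 ± 0.618 to 3.11 ± 0.701 CPM (log2 1.76, SE 0.431, adjusted p = 0.0109, edgeR), and missed the threshold without ligation replicate 3 (edgeR adjusted p = 0.0548).

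Btla encodes an inhibitory receptor of lymphocytes and some myeloid cells that binds HVEM, the product of Tnfrsf14, and recruits the phosphatases encoded by Ptpn6 and Ptpn11. Its locus on chromosome 16 runs from 45224315 to 45257670, plus strand (ENSMUSG00000052013). Its counts were 0, 3 and 1 in sham, 7, 11 and 19 after ligation, and 0, 2 and 1 with cells. Its levels were 0, 0.494 and 0.159 CPM in sham, 1.49, 1.59 and 2.38 CPM after ligation, and 0, 0.277 and 0.144 CPM with cells. Every ligation library was above all 6 others, and sham and ligation plus cells overlapped at or below the limit of detection. The rate of counts after ligation was 8.49 times that in sham (95% exact interval 3.05 to 32.8, counting error only). With cells it was 0.0750 times that after ligation (0.0148 to 0.237), and 0.636 times that in sham, with an interval from 0.0932 to 3.76 that spans both directions. The fitted log2 differences were 2.96 (SE 0.686) for ligation against sham and -3.55 (SE 0.712) for cells against ligation. They became 4.19 without sham replicate 2 and -4.37 without cell replicate 2.

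Its RefSeq promoter (GRCm38.p6, plus strand, chr16:45224087-45224386) is shown beside that of Cd5l because both genes were high in the same 3 libraries:
Btla: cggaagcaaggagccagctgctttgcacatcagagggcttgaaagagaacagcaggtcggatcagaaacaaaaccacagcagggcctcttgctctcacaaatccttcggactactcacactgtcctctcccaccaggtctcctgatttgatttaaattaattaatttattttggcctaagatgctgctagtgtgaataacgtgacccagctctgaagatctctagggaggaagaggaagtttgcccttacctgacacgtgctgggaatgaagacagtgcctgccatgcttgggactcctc
No match to any of the 3 motifs was found in this window, so there are no capitals. Of 22 lymphocyte and dendritic cell genes, whose cells are best known for BTLA, 4 had enough reads to be tested. Ms4a1 and Cd3d had 0 counts in all libraries, but other genes of the list had a few. Of 15 untested genes with reads, 9 had their highest summed count after ligation, beside 28.95% of all 11781 untested genes with reads. In 3 of the 15 every ligation library lay above all others in CPM, as it did for Btla, beside 1.53% of those 11781 genes. Btla had 4 counts in sham, 37 after ligation and 3 with cells. Over the same groups the B cell genes Cd79b and Cd22 had 2, 14 and 3 counts and 1, 13 and 3 counts, whereas Cd79a had 5, 1 and 2. Flt3, of dendritic cells and their precursors, had 1, 18 and 3 counts, and the natural killer cell genes Ncr1 and Klrb1c had 3, 13 and 1 and 0, 7 and 0 counts. The T cell genes differed from each other, Cd3g having 1, 7 and 2 counts and Cd3e 7, 2 and 1. The summed level of the list, mostly Zbtb46 and Ighm, was 59.4 to 67.2 CPM in sham, 51.4 to 62.3 CPM after ligation and 34.0 to 42.1 CPM with cells. The part of such cells in the level of Btla was not tested. Among these Ighm, an immunoglobulin heavy chain gene, fell from 15.7 ± 2.20 CPM (SD, n = 3) after ligation to 5.64 ± 2.15 with cells (log2 -1.49, SE 0.215, adjusted p = 6.995e-05, edgeR). Itgax, a gene of dendritic cells and macrophages, rose from 0.552 ± 0.233 to 2.10 ± 0.783 CPM after ligation (log2 1.92, SE 0.526, adjusted p = 0.00633, edgeR), a call lost without ligation replicate 3 (edgeR adjusted p = 0.0679). Zbtb46, a transcription factor of classical dendritic cells and endothelium, fell after ligation, from 42.9 ± 3.82 to 26.8 ± 0.763 CPM (log2 -0.68, SE 0.0928, adjusted p = 6.47e-06, edgeR). Ptpn6, the phosphatase downstream of BTLA in blood cells, fell with cells from 14.4 ± 2.14 to 5.48 ± 1.04 CPM (log2 -1.38, SE 0.213, adjusted p = 0.000154, edgeR).

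F5 encodes coagulation factor V, the cofactor of factor Xa, which is made in the liver and in megakaryocytes and is also expressed by peritoneal macrophages. The gene is on chromosome 1 from 164151838 to 164220277, plus strand (ENSMUSG00000026579), overlaps 2 annotated non-coding genes, and shares 3.14% of its 31-base stretches with another gene. Counts were 4, 1 and 1 in sham, 8, 16 and 15 after ligation, and 4, 3 and 6 with cells. Levels were 0.712, 0.165 and 0.159 CPM in sham, 1.70, 2.32 and 1.88 CPM after ligation, and 0.567, 0.416 and 0.864 CPM with cells. All ligation libraries were above all others, and the sham and cell libraries overlapped. The rate after ligation was 5.96 times that in sham (95% exact interval 2.51 to 17.2), and with cells it was 0.308 times that after ligation (0.151 to 0.590). The fitted log2 differences were 2.50 (SE 0.574) and -1.66 (SE 0.488). The first became 3.47 without sham replicate 1. The second missed an edgeR adjusted p of 0.05 in every fit that left out a ligation or cell library.

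The other clotting genes were mixed. Of 15, 8 were tested: in ligation against sham 1 rose and 3 fell, with a median log2 difference of -0.06, and with cells against ligation none rose and 2 fell, with a median of 0.09. With library totals alone the first split turned to 3 rising and 1 falling. In the second, 1 fell in place of 2 without ligation replicate 2 or cell replicate 2, and 1 rose without ligation replicate 1. The liver-made factors F2, F11 and Proc had 0 counts in all 9 libraries, while other untested genes of the list had a few. F7, F9 and Serpinc1 had 10, 0 and 2 counts in sham, 10, 1 and 2 after ligation, and 5, 0 and 0 with cells. F10, the gene of the enzyme that factor V assists, had too few reads to be tested, with 8 counts in sham, 26 after ligation and 3 with cells. As for F5, every ligation library of F10 lay above all others, the lowest at 0.875 CPM against at most 0.794 in sham and 0.284 with cells. This held for 1 of the 4 untested clotting genes with reads, beside 1.53% of all 11781 untested genes with reads. F13a1, the factor XIII subunit made by macrophages and megakaryocytes, fell from 104.5 ± 4.64 CPM (SD, n = 3) in sham to 80.2 ± 4.80 after ligation (log2 -0.39, SE 0.0766, adjusted p = 0.000423, edgeR). With cells it fell to 40.1 ± 5.03 CPM (log2 -0.997, SE 0.0826, adjusted p = 4.19e-08, edgeR). Procr, the endothelial protein C receptor, rose from 6.90 ± 1.27 to 12.2 ± 1.13 CPM after ligation (log2 0.81, SE 0.191, adjusted p = 0.00202, edgeR). Mcfd2, which helps to export factors V and VIII from the endoplasmic reticulum, fell with cells from 73.6 ± 1.28 to 60.4 ± 5.88 CPM (log2 -0.28, SE 0.0721, adjusted p = 0.0135, edgeR). It missed the threshold without ligation replicate 2 or cell replicate 2, at edgeR adjusted p = 0.0612 and 0.0872. Of 9 megakaryocyte and platelet genes 4 were tested. In ligation against sham none rose and 1 fell, with a median log2 difference of 0.23, and with cells against ligation none rose and 1 fell, with a median of -0.33. The 1 was Pf4 in both. Pf4, platelet factor 4, fell from 32.5 ± 2.32 CPM in sham to 20.3 ± 1.14 after ligation and 9.71 ± 0.802 with cells (log2 -0.68 and -1.06, adjusted p = 4.40e-05 and 6.80e-06, edgeR). The platelet genes Ppbp and Itga2b had higher means after ligation, at 1.74 ± 0.496 and 2.53 ± 0.658 CPM and at 2.42 ± 0.843 and 3.82 ± 1.04 CPM in sham and ligation (edgeR adjusted p = 0.346 and 0.140).

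Timd4 encodes TIM4, a phosphatidylserine receptor through which resident macrophages take up dying cells, and a marker of long-lived macrophages in the heart as well as in the peritoneum. It lies on chromosome 11 from 46810800 to 46844332, plus strand (ENSMUSG00000055546). Counts were 27, 28 and 20 in sham, 21, 32 and 34 after ligation, and 19, 18 and 13 with cells. Levels were 4.81, 4.61 and 3.17 CPM in sham, 4.47, 4.63 and 4.25 CPM after ligation, and 2.70, 2.50 and 1.87 CPM with cells. Sham and ligation overlapped, and all 3 libraries with cells were below all others. The fitted log2 difference was 0.09 (SE 0.271) for ligation against sham, -0.91 (SE 0.288) for cells against ligation, and -0.82 (SE 0.293) for cells against sham. The first turned to -0.08 without sham replicate 3. The second did not pass an edgeR adjusted p of 0.05, but did in 5 of 18 alternatives, among them the fit without sham replicate 3.

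Of 12 other phosphatidylserine receptor and bridging genes, 8 were tested, and the related receptors Havcr1 and Timd2 had 0 counts in all libraries. In ligation against sham 4 rose and none fell, and with cells against ligation none rose and 3 fell, with medians of 0.21 and -0.18. Without ligation replicate 2, 2 rose in place of 4, and with library totals alone 7. Havcr2, which encodes TIM3, rose from 1.68 ± 0.362 CPM (SD, n = 3) in sham to 3.61 ± 0.748 after ligation (log2 1.13, SE 0.342, adjusted p = 0.0125, edgeR). With cells it fell to 0.803 ± 0.0950 CPM (log2 -2.17, SE 0.377, adjusted p = 0.000518, edgeR). Its rise was lost with DESeq2 and without sham replicate 3 or ligation replicate 2 or 3, at edgeR or DESeq2 adjusted p between 0.0515 and 0.0620. Stab1, the scavenger receptor stabilin 1, fell with cells from 158.0 ± 10.3 to 95.3 ± 5.39 CPM (log2 -0.73, SE 0.0686, adjusted p = 2.65e-07, edgeR). Stab2 rose after ligation from 0.614 ± 0.110 to 2.13 ± 1.69 CPM (log2 1.82, SE 0.566, adjusted p = 0.0145, edgeR). That rise rested on ligation replicate 2, without which the edgeR adjusted p was 0.217 and the log2 difference 0.997, and it was also lost without sham replicate 2 (edgeR adjusted p = 0.0539).

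Gata6 encodes the transcription factor that defines the serous-cavity macrophage programme, but heart muscle and other heart cells express it too. Its counts were 269, 292 and 293 in sham, 260, 391 and 498 after ligation, and 445, 430 and 462 with cells (ENSMUSG00000005836). The levels were 47.9, 48.1 and 46.5 CPM in sham, 55.4, 56.6 and 62.3 CPM after ligation, and 63.1, 59.6 and 66.6 CPM with cells. All ligation libraries were above all sham libraries, and ligation and ligation plus cells overlapped. In the fit, the log2 difference was 0.30 (SE 0.0746) for ligation against sham and 0.11 (SE 0.0711) for cells against ligation. An antisense transcript overlaps the gene, and reads of the 2 cannot be separated without a known strand setting.

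Gata6 thus did not share the course of Cd5l and Alox15. The related factor Gata4, also a gene of heart muscle, rose with cells from 102.9 ± 2.11 CPM (SD, n = 3) after ligation to 125.6 ± 3.20 (log2 0.29, SE 0.0628, adjusted p = 0.00452, edgeR). Of 10 heart muscle genes, 3 rose and 6 fell in ligation against sham, and 3 rose and 1 fell with cells against ligation. In place of that 1, from 0 to 3 fell when single libraries were left out (3 without ligation replicate 3, 0 without ligation replicate 1 or cell replicate 1 or 3), and 4 with library totals alone. That scaling also gave 5 rising in ligation against sham, in place of 3. The contractile genes Tnni3 and Myl2 fell after ligation, from 6091 ± 116 to 3164 ± 255 CPM and from 8704 ± 186 to 4547 ± 404 CPM (log2 -0.95 and -0.94, edgeR adjusted p = 1.69e-12 and 1.01e-12). Pln, the phospholamban gene, rose with cells from 812 ± 74.3 to 926 ± 34.0 CPM (log2 0.19, SE 0.0570, adjusted p = 0.0375, edgeR). It missed the threshold in 6 of 18 alternative fits, with edgeR adjusted p from 0.0510 with library totals alone to 0.194 without ligation replicate 3. Among these were the fits without ligation replicate 2 or cell replicate 1 or 2, at edgeR adjusted p = 0.0720, 0.106 and 0.107.

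Icam2 encodes an adhesion ligand of the leukocyte integrin LFA-1 that is abundant on endothelium as well as on serous-cavity macrophages. Its position is chromosome 11 from 106377656 to 106388075, minus strand (ENSMUSG00000001029). Counts were 403, 477 and 466 in sham, 203, 249 and 364 after ligation, and 324, 340 and 310 with cells. Levels were 71.7, 78.6 and 74.0 CPM in sham, 43.3, 36.0 and 45.5 CPM after ligation, and 46.0, 47.2 and 44.7 CPM with cells. Every sham library was above the other 6, and ligation overlapped ligation plus cells. In the fit, the log2 difference was -0.85 (SE 0.0825) for ligation against sham, 0.14 (SE 0.0851) for cells against ligation, and -0.70 (SE 0.0806) for cells against sham.

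Endothelial genes other than Icam2 were also lower after ligation: of 16 tested, 12 fell and 1 rose, with a median log2 difference of -0.41, beside 0.01 over all genes. With cells against ligation 3 rose and 2 fell, with a median of 0.03. The 2 that fell were reduced to 1 without ligation replicate 2 or 3 or cell replicate 2 or 3, and the 1 that had risen after ligation, Vwf, did not pass without ligation replicate 3. The summed level of the 16 genes was 3208 to 3429 CPM in sham, 2257 to 2437 CPM after ligation and 2352 to 2432 CPM with cells, and so was high and low in the same groups as Icam2. The part of endothelial RNA in the level of Icam2 was not tested. Kdr, the main VEGF receptor of endothelium, fell from 516 ± 5.59 CPM (SD, n = 3) in sham to 278 ± 12.4 after ligation (log2 -0.89, SE 0.0475, adjusted p = 6.52e-12, edgeR). Cldn5, a tight junction gene, fell after ligation from 62.6 ± 6.09 to 36.7 ± 2.60 CPM and rose with cells to 57.2 ± 6.41 CPM (log2 -0.77 and 0.65, adjusted p = 1.38e-06 and 7.87e-05, edgeR). Vwf, von Willebrand factor, fell with cells from 217 ± 21.9 to 171 ± 3.92 CPM (log2 -0.34, SE 0.0643, adjusted p = 0.00120, edgeR). Itgb2, a chain of the integrin that binds ICAM2 on leukocytes, rose after ligation from 10.2 ± 1.60 to 21.9 ± 4.82 CPM and fell with cells to 7.56 ± 1.43 CPM (log2 1.08 and -1.51, adjusted p = 5.29e-05 and 6.43e-06, edgeR).

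Prg4 encodes lubricin, a lubricating glycoprotein of joints and serous surfaces that is also expressed by peritoneal macrophages and mesothelium. It lies on chromosome 1 from 150449412 to 150466165, minus strand (ENSMUSG00000006014), shares 4.96% of its 31-base stretches with another gene and overlaps Tpr on the opposite strand. Counts were 233, 257 and 292 in sham, 494, 720 and 932 after ligation, and 565, 585 and 528 with cells. Levels were 41.5, 42.3 and 46.4 CPM in sham, 105, 104 and 116.5 CPM after ligation, and 80.1, 81.1 and 76.1 CPM with cells. The 3 groups did not overlap, with the libraries with cells between the others. The fitted log2 difference was 1.33 (SE 0.0717) for ligation against sham, -0.46 (SE 0.0664) for cells against ligation, and 0.87 (SE 0.0728) for cells against sham.

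Saa3 encodes an acute phase serum amyloid protein made outside the liver, by macrophages, mesothelium and fat among others. It lies on chromosome 7 from 46711998 to 46715700, minus strand (ENSMUSG00000040026), and shares 7.56% of its 31-base stretches with another gene. Counts were 11, 5 and 9 in sham, 72, 97 and 117 after ligation, and 169, 174 and 151 with cells. Levels were 1.96, 0.824 and 1.43 CPM in sham, 15.3, 14.0 and 14.6 CPM after ligation, and 24.0, 24.1 and 21.8 CPM with cells. The groups did not overlap, and Saa3 was the only one of the 9 genes whose libraries with cells all lay above all ligation libraries. The fitted log2 difference was 3.38 (SE 0.224) for ligation against sham, 0.67 (SE 0.133) for cells against ligation, and 4.05 (SE 0.207) for cells against sham.

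The RefSeq promoter of Saa3 (GRCm38.p6, minus strand, chr7:46715627-46715926) is shown to set this gene, which was high with cells, beside Cd5l, which was low with cells:
Saa3: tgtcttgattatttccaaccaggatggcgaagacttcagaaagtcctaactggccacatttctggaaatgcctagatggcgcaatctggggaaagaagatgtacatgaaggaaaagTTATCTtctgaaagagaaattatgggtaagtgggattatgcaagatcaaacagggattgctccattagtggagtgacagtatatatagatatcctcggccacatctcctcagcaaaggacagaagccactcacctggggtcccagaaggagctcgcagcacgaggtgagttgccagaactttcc
It holds 1 GATA match, in capitals, at position -134, where 29.8% of promoters hold at least 1. Of the 9 genes, 5 had a promoter in the RefSeq table. Besides those printed, the Timd4 promoter held 1 GATA match at position 5 and 1 AGGTCA match at -116, and that of F5 held 1 AGGTCA match at -57.

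Mesothelial genes, which include the markers of the epicardium, moved with Prg4 and Saa3 in the first comparison. Of 16, 15 were tested and all 15 rose in ligation against sham, with a median log2 difference of 2.66, beside 0.01 over all genes. The remaining one, Calb2, had 0 counts in all 9 libraries. With cells against ligation none rose and 5 fell, with a median of -0.23. Without ligation replicate 3, 2 fell, and without cell replicate 3, 3 fell and 1 rose. The summed level was 69.2 to 84.3 CPM in sham, 356 to 411 CPM after ligation and 293 to 303 CPM with cells. Like Prg4, and unlike Saa3, it was lower with cells than after ligation in every library. The part of mesothelial RNA in the levels of Prg4 and Saa3 was not tested.

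Muc16, a mucin of the mesothelial surface, rose after ligation from 1.23 ± 0.427 CPM (SD, n = 3) to 20.1 ± 2.16 (log2 4.03, SE 0.228, adjusted p = 1.55e-11, edgeR) and was at 17.6 ± 1.88 CPM with cells. Upk1b, a uroplakin of mesothelium, rose from 1.07 ± 0.316 to 17.5 ± 3.19 CPM (log2 4.04, SE 0.266, adjusted p = 1.67e-10, edgeR) and was at 16.1 ± 2.67 CPM with cells. Both were thus an order of magnitude above sham in both ligated groups. The epithelial keratin gene Krt19 fell with cells from 21.3 ± 1.36 to 12.3 ± 0.394 CPM (log2 -0.79, SE 0.136, adjusted p = 0.000521, edgeR). Aldh1a2, the retinoic acid synthesising enzyme of mesothelium, fell with cells from 21.1 ± 4.62 to 12.5 ± 0.318 CPM (log2 -0.77, SE 0.176, adjusted p = 0.00660, edgeR), a call lost without ligation replicate 3 (edgeR adjusted p = 0.0871).

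A list of 12 genes tied to serum amyloid held 6 acute phase genes other than Saa3 (Saa1, Saa2, Saa4, Lcn2, Orm1 and Hp), the cytokine genes Il6, Il1b and Tnf, and the receptor genes Fpr2, Tlr2 and Tlr4. Of these 6 were tested: Lcn2, Orm1, Hp, Il6, Tlr2 and Tlr4. Saa2 and Saa4 had 0 counts in all libraries. In ligation against sham 5 rose, all but Lcn2, and none fell. With cells against ligation none rose and 2 fell, the acute phase gene Hp and the receptor gene Tlr2. The median log2 differences of the list were 1.44 and -0.40. Without sham replicate 2 or 3 or cell replicate 1, 1 rose with cells. Hp, the haptoglobin gene, rose from 9.21 ± 2.58 CPM (SD, n = 3) in sham to 65.0 ± 4.23 after ligation and fell to 34.0 ± 1.65 with cells (log2 2.82 and -0.94, adjusted p = 3.84e-13 and 1.57e-06, edgeR). Tlr2, a receptor reported to sense serum amyloid A, fell with cells from 14.6 ± 0.813 to 8.71 ± 0.911 CPM (log2 -0.75, SE 0.175, adjusted p = 0.00775, edgeR). Both fell where Saa3 was higher. Orm1, an orosomucoid gene, rose from 0.279 ± 0.341 to 1.13 ± 0.263 CPM after ligation (log2 1.99, SE 0.721, adjusted p = 0.0344, edgeR) near the limit of detection. With cells Orm1 was at 3.02 ± 1.02 CPM, every library above all ligation libraries as for Saa3 (log2 against ligation 1.36, SE 0.449, adjusted p = 0.0616, edgeR; against sham 3.35, SE 0.606, adjusted p = 0.000150, edgeR). Its log2 rise after ligation was 3.52 without sham replicate 2 and 1.41 without sham replicate 3. It missed the threshold without sham replicate 1 or 3 or ligation replicate 2 or 3, and with libraries summed by header name, at edgeR adjusted p from 0.0579 to 0.141.

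**Figure D2:**
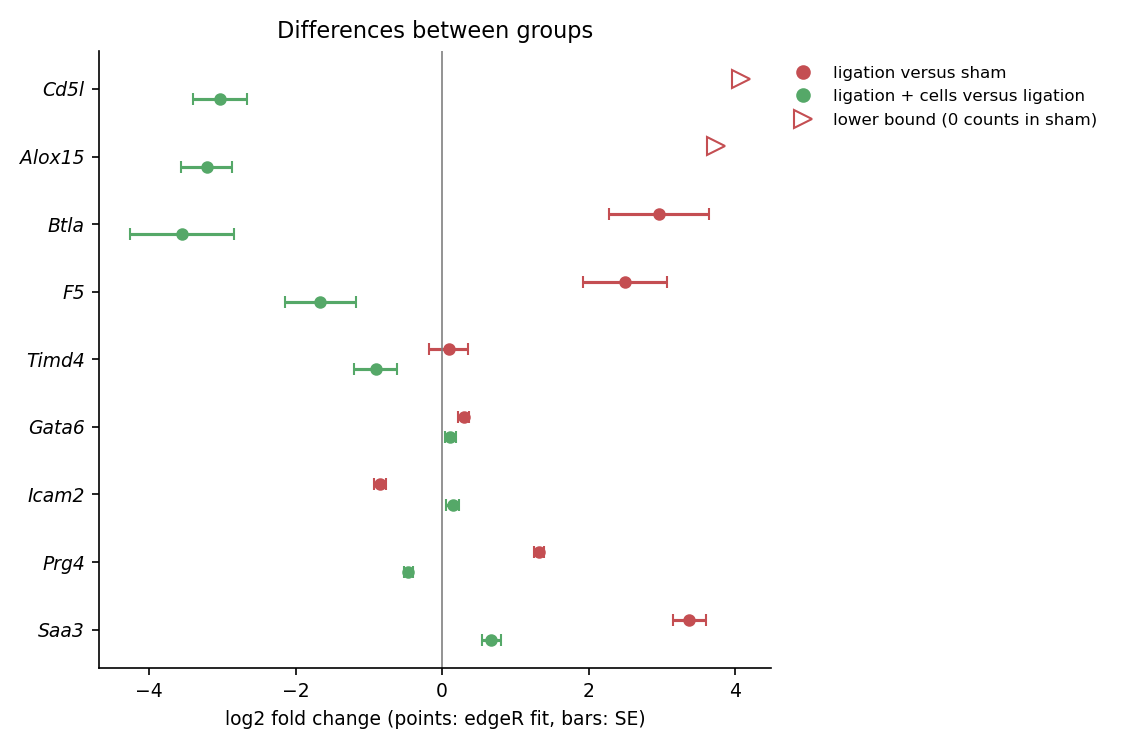
Fitted log2 fold change of each of the 9 genes (points, with SE) in ligation against sham and in ligation plus cells against ligation; open triangles are lower bounds where sham had 0 counts. Cd5l, Alox15, Btla and F5 lie to the right in the first comparison and to the left in the second, whereas Saa3 lies to the right in both, at 3.38 and 0.67.

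Levels between genes were compared as CPM per kilobase of exon. In sham the order was Icam2 at 39.3, Prg4 at 10.1, Gata6 at 7.30, Timd4 at 1.93 and Saa3 at 0.539 CPM per kilobase, then Btla and F5 at 0.0641 and 0.0465, which overlapped, and Cd5l and Alox15 at 0. After ligation it was Prg4 at 25.4, Icam2 at 21.8, Gata6 at 8.92, Saa3 at 5.63, Cd5l at 4.43, Alox15 at 2.90, Timd4 at 2.05, Btla at 0.536 and F5 at 0.264, and no neighbours overlapped. Cd5l and Alox15 thus passed from the bottom to above Timd4. With cells it was Icam2 at 24.1, Prg4 at 18.5, Gata6 at 9.70, Saa3 at 8.94, Timd4 at 1.08, Cd5l at 0.532, Alox15 at 0.308, F5 at 0.0829 and Btla at 0.0414. There Gata6 overlapped Saa3, Cd5l overlapped Timd4 and Alox15, and F5 overlapped Btla.

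The list of 25 other genes reported in serous-cavity macrophages, 22 of them tested, was mixed. In ligation against sham 14 rose and 4 fell, with a median log2 difference of 0.76, and with cells against ligation 4 rose and 5 fell, with a median of -0.02. The 4 that fell were 2 without sham replicate 3 or ligation replicate 2, and 1 with library totals alone. The summed level of the list was 791 to 842 CPM in sham, 1110 to 1153 CPM after ligation and 1255 to 1306.5 CPM with cells, so it was highest with cells in every library. The largest parts of that sum with cells were Fn1, the fibronectin gene of many cell types, at 298 ± 10.2 CPM, and Klf2 at 186 ± 6.94 CPM. Fn1 was at 88.1 ± 2.82 CPM in sham and 275 ± 8.71 CPM after ligation. In ligation plus cells against sham 13 rose and 1 fell, with a median of 0.61. The 1 that fell became 2 without sham replicate 1 or cell replicate 2, without mitochondrially encoded genes or with libraries summed by header name, and 0 with library totals alone. The scavenger receptor gene Marco rose from 0.214 ± 0.242 CPM (SD, n = 3) in sham to 11.2 ± 1.13 after ligation and fell to 2.46 ± 0.402 with cells (log2 5.52 and -2.17, adjusted p = 1.67e-09 and 9.11e-06, edgeR). With at most 3 counts per sham library, its first difference became 6.73 without sham replicate 3. Cxcl13, a B cell attracting chemokine of cavity macrophages, rose from 1.07 ± 0.458 to 17.3 ± 1.08 CPM and fell to 3.90 ± 1.11 CPM (log2 4.01 and -2.14, adjusted p = 3.30e-10 and 4.67e-07, edgeR). The other genes that fell with cells were Vsig4, Fcna and Lrg1, by 1.79, by 1.67 and by 0.31 on the log2 scale. Those that rose with cells were Itga6, Klf2, Klf4 and Thbs1, by 0.20, 0.82, 0.67 and 0.63 on the log2 scale. Lrg1 and these 4 genes are also expressed by endothelium or other heart cells.

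General macrophage and monocyte genes mostly rose after ligation and fell with cells. All 23 were tested: in ligation against sham 15 rose and 2 fell, with a median log2 difference of 0.58, and in ligation plus cells against ligation none rose and 19 fell, with a median of -1.24. In ligation plus cells against sham none rose and 15 fell, with a median of -0.66. The monocyte chemokine receptor gene Ccr2 rose from 4.32 ± 0.361 CPM (SD, n = 3) to 15.04 ± 1.75 after ligation and fell to 3.77 ± 0.428 with cells (log2 1.79 and -1.99, adjusted p = 2.41e-07 and 3.71e-07, edgeR). Adgre1, which encodes the macrophage antigen F4/80, was at 15.4 ± 2.03 CPM in sham and 32.2 ± 3.73 after ligation, and fell to 9.89 ± 1.30 with cells (log2 -1.69, SE 0.138, adjusted p = 3.26e-08, edgeR). Trem2, a lipid receptor of macrophages, rose from 8.34 ± 1.67 to 23.8 ± 2.69 CPM after ligation (log2 1.51, SE 0.154, adjusted p = 1.15e-07, edgeR) and was at 10.2 ± 0.423 CPM with cells. The 2 that fell after ligation were Ly6c2 and Cd163; 1 fell without sham replicate 3 or ligation replicate 3, and none with library totals alone.

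**Figure D3:**
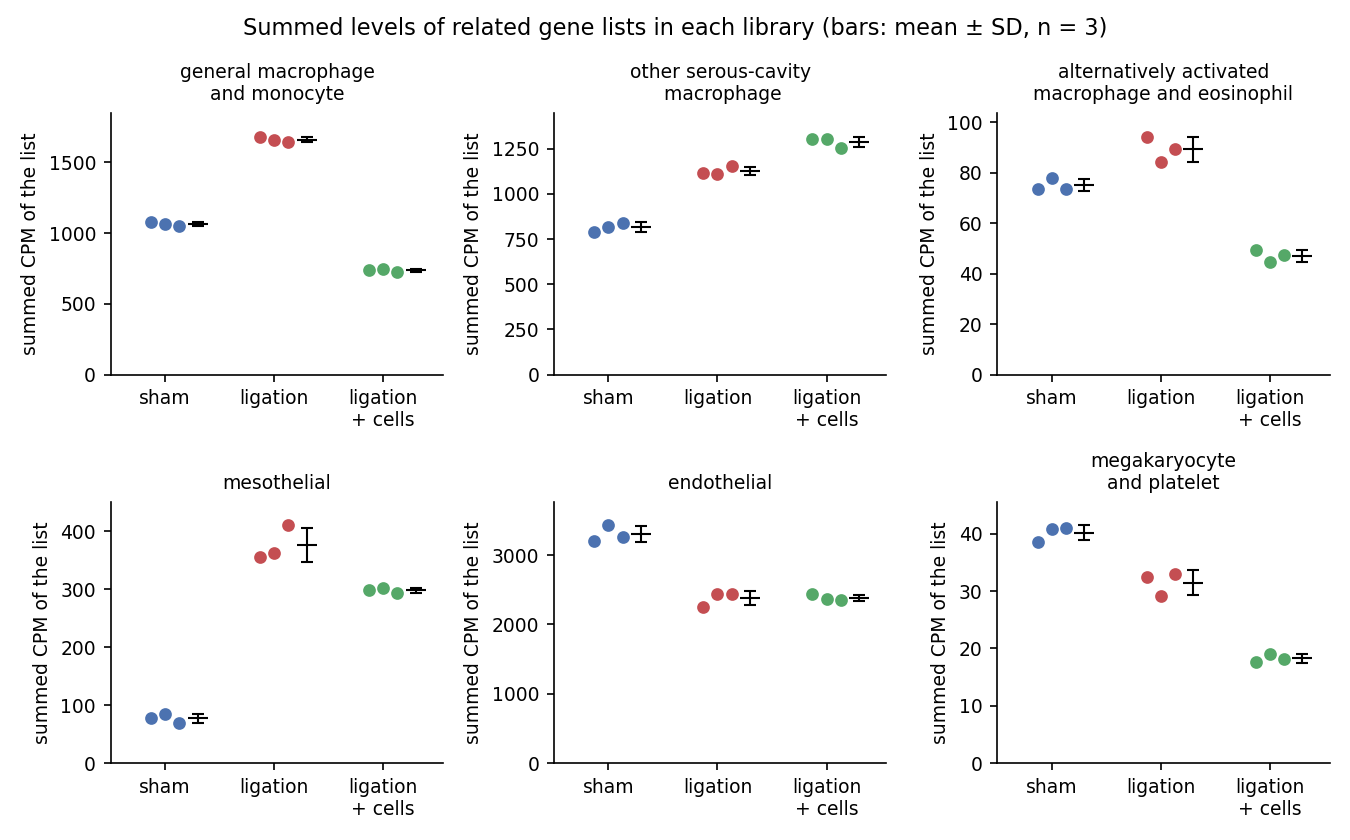
Summed TMM-scaled CPM of 6 gene lists in each library (points), with the mean and SD of 3 libraries, for sham, ligation and ligation plus cells. The general macrophage list is highest after ligation, at 1662 CPM, and lowest with cells, at 739 CPM, while the mesothelial list is high in both ligated groups and the endothelial list low in both.

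The summed level of the general macrophage list was 1049 to 1078 CPM in sham, 1644 to 1681 CPM after ligation and 728 to 749 CPM with cells. Its largest part was Lyz2, at 618 ± 19.3 CPM after ligation and 261 ± 6.66 with cells. The list also held the growth factor genes Csf1, at 76.8 ± 1.28 and 71.2 ± 5.07 CPM, and Il34, at 7.27 ± 1.10 and 6.41 ± 0.461. The sum thus does not weigh its genes alike. The summed level was 2.25-fold lower with cells than after ligation, where Cd5l was 8.32-fold and Alox15 9.40-fold lower. In bulk tissue, fewer macrophages and less of these RNAs per macrophage cannot be told apart. Per 1000 CPM of that list, Cd5l was at 0 in sham, 5.43 ± 0.358 CPM (SD, n = 3) after ligation and 1.46 ± 1.09 with cells, and Alox15 at 0, 4.28 ± 0.711 and 1.03 ± 0.247. On this scale too, ligation stood above both other groups in every library for Cd5l, Alox15 and Btla. Btla was at 0.205 ± 0.237, 1.10 ± 0.303 and 0.189 ± 0.185. F5 was at 0.322 ± 0.293, 1.18 ± 0.194 and 0.836 ± 0.321, and its ligation and cell libraries overlapped. Timd4, lower with cells in CPM, was at 3.94 ± 0.793, 2.68 ± 0.103 and 3.18 ± 0.551 on this scale, where ligation and ligation plus cells overlapped and every sham library lay above every ligation library. The group means of Gata6 and Prg4 had another order on this scale than in CPM, and those of Icam2 the same order. Gata6 was at 44.6 ± 0.458 in sham, 35.0 ± 2.58 after ligation and 85.4 ± 5.86 with cells, and Icam2 at 70.3 ± 3.62, 25.04 ± 3.05 and 62.1 ± 0.837. Prg4 was at 40.8 ± 2.996, 65.4 ± 4.73 and 107 ± 2.24, and Saa3 at 1.32 ± 0.523, 8.83 ± 0.341 and 31.5 ± 1.41, so both were highest with cells. The list in the denominator itself differed between the groups, as its summed levels show.

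**Figure D4:**
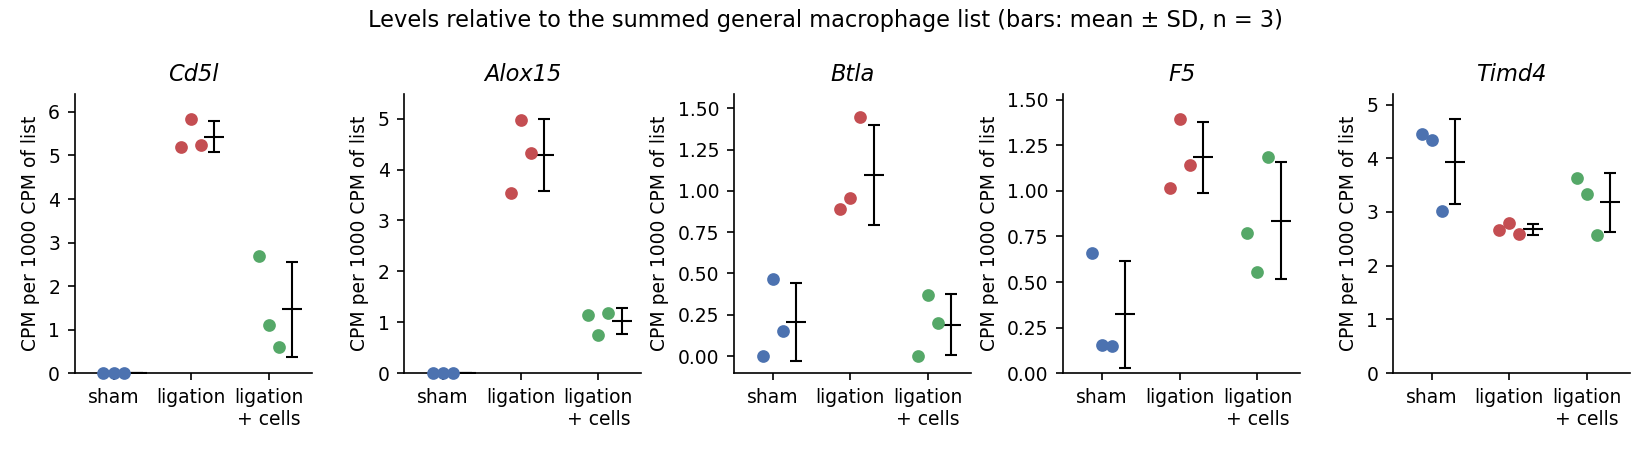
Level of Cd5l, Alox15, Btla, F5 and Timd4 per 1000 summed CPM of the 23 general macrophage genes in each library (points), with the mean and SD of 3 libraries. For Cd5l, Alox15 and Btla all ligation points stay above all others, whereas for F5 and Timd4 the points of ligation and of ligation plus cells overlap.

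Alternatively activated macrophages and eosinophils also express Alox15. Of 16 genes of these cells 7 were tested, with 4 rising and 1 falling in ligation against sham, and none rising and 5 falling with cells against ligation. Without ligation replicate 3, 2 fell in the first comparison in place of 1. The eosinophil gene Il5ra and the cytokine gene Il13 had 0 counts in all libraries, but other eosinophil genes had a few. In sham, ligation and ligation plus cells, Siglecf had 1, 4 and 3 counts, Ear2 2, 5 and 2, and Prg2 2, 4 and 0. Epx had 0, 0 and 1 counts and Ccr3 0, 0 and 2. The summed level of the 16 genes was 73.7 to 77.9 CPM in sham, 84.2 to 94.2 CPM after ligation and 44.5 to 49.5 CPM with cells. Its part in the level of Alox15 was not tested. Retnla, a gene induced by interleukin 4, rose from 2.29 ± 1.21 to 9.52 ± 0.849 CPM and fell to 2.13 ± 0.685 CPM (log2 2.02 and -2.15, adjusted p = 2.81e-05 and 6.65e-05, edgeR). Of 6 hepatocyte and Kupffer cell genes, which mark the other tissue known for Cd5l, Ttr and Serpina1a were tested, with edgeR adjusted p from 0.326 to 0.932 over the 3 comparisons, and the summed level was 0.971 to 5.75 CPM over all 9 libraries.

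**Figure D5:**
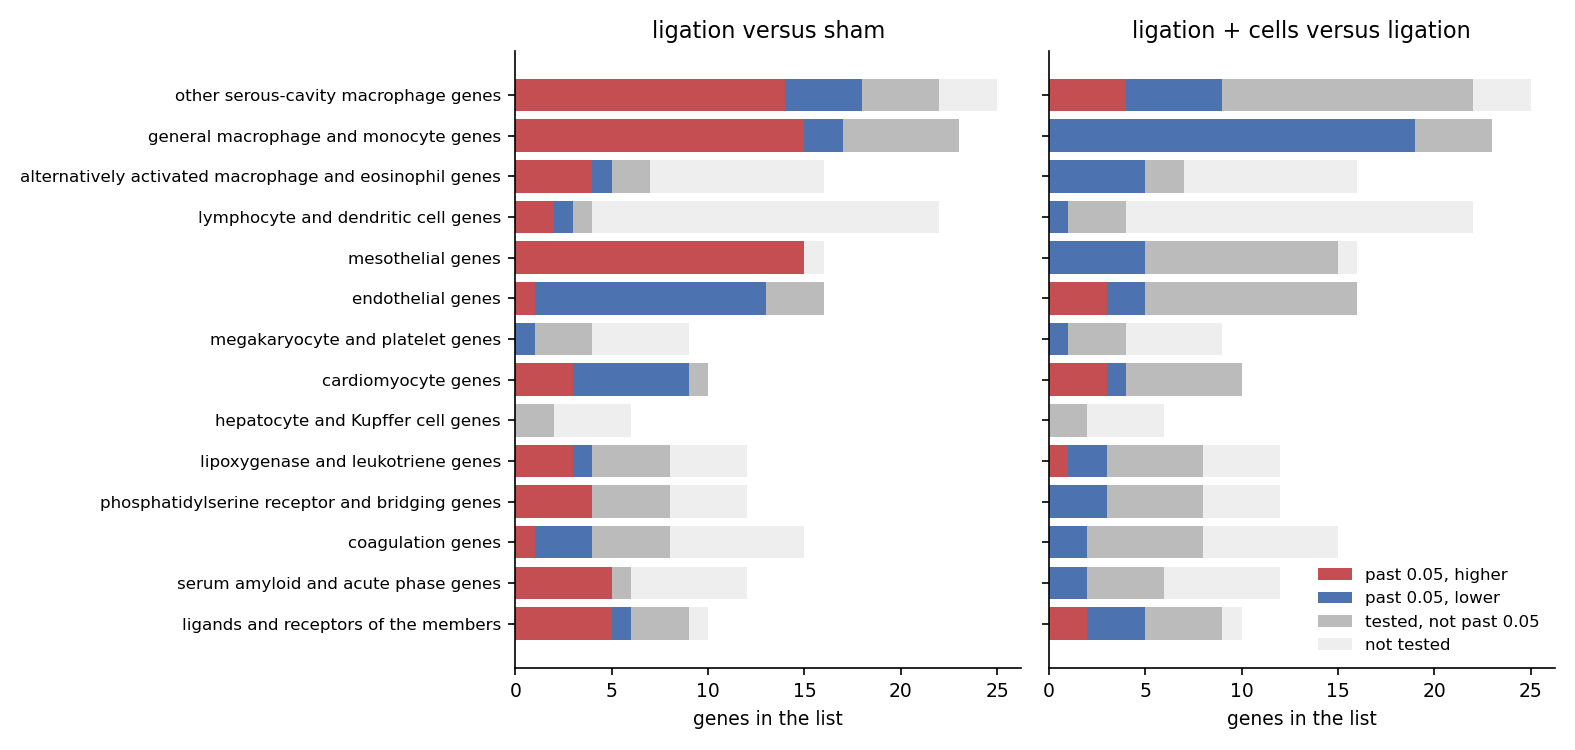
Number of genes in each of 14 lists that rose, fell or did not pass an edgeR adjusted p of 0.05, or were not tested, in ligation against sham (left) and in ligation plus cells against ligation (right). The general macrophage list turns from 15 rising to 19 falling, and the mesothelial list has 15 rising on the left.

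The genes most like Cd5l over the 9 libraries, by Pearson's r of log2(CPM + 1) among 13795 genes with a mean of at least 1 CPM, were Alox15 at 0.982, P2ry6 and Ammecr1 both at 0.978, and Tfb2m at 0.977. Those most like Alox15 were Aoc3 at 0.992, Ctsz at 0.987, Tfb2m at 0.985 and Lgmn at 0.982. Ctsz and Lgmn encode lysosomal proteases. The levels of Lgmn were 93.1 ± 4.02 CPM (SD, n = 3) in sham, 137 ± 1.37 after ligation and 102 ± 5.17 with cells, so its range was far narrower than that of Alox15. Those most like Saa3 were Itgb1, Sfrp2 and Txlnb, each at 0.996, and Prkar1a at 0.995; Sfrp2, a secreted Wnt modulator, was at 4.67 ± 0.774, 18.5 ± 0.649 and 26.8 ± 1.54 CPM. Among the 9 genes themselves r was 0.858 between Cd5l and Btla, 0.903 between Cd5l and F5, 0.334 between Cd5l and Timd4 and 0.454 between Cd5l and Gata6. These correlations are a description, since the libraries fall into 3 groups and share their scaling.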

How the data were processed

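RNA of 9 heart libraries was extracted with TRIzol and made into libraries with the NEBNext Ultra RNA kit, per the labels' protocols. The authors deposited raw read counts per Ensembl gene, 1 file per library, not normalized. The build is mm10 per the submitters' processing notes; aligner, counter, strand setting and annotation release are not given in the sources used here. Lines that name no gene stayed out of library sizes: reads outside genes were 4.14% to 4.91% and ambiguous reads 8.09% to 8.72% of each library, and the lines for reads that did not align, aligned more than once or had low quality hold 0. Groups and replicate numbers come from the titles; for cell replicates 2 and 3 the source field gives a FOXO member other than the FOXO3 of their title and treatment field.

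Symbols (53274 of 53465 IDs), positions and exon lengths came from GENCODE M21 (GRCm38), and promoters from RefSeq (GRCm38.p6). In R 4.3.3 with edgeR 4.0.16, genes were kept with filterByExpr, scaled with TMM, and fitted in 1 quasi-likelihood model over all 9 libraries (glmQLFit, glmQLFTest, 6 residual degrees of freedom), with two-sided p-values adjusted by Benjamini-Hochberg over 13825 genes and called at 0.05. The code was tested on simulated data. Each SE is the log2 fold change divided by the square root of the F statistic. The ratio of counts has a 95% exact binomial interval; both it and the floor of 3 counts cover counting error only, PCR reads being without molecular identifiers. The CPM ranges of 2 groups are apart when they do not overlap.

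The 9 genes and the 14 lists (204 other genes, 142 tested) were chosen with earlier results of these data known. From each list the text names up to 4 called genes whose mean reached 1 CPM, the 2 largest changes in each of the first comparisons, and genes at 0 in all libraries; the other names were added after their values were seen. Some results that this rule gave are not reported here. Likeness took the 4 highest correlations for Cd5l, Alox15 and Saa3. Alternatives were other scalings and filters, DESeq2 1.42.0, fits of only 2 groups, removal of mitochondrially encoded genes, a replicate block, and leaving out each library; summing libraries by header name was chosen after seeing the data.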

Additional observations from a re-analysis of the deposited data

How the results depend on the processing

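Among 479 fold changes of the 9 genes and 880 of the named list genes under the alternatives, no called one changed direction; this was not examined for other genes. Genes past an edgeR adjusted p of 0.05 numbered 5277 for ligation against sham, 1365 for cells against ligation, and 5661 for cells against sham; fits without 1 library ranged over 4482 to 5459, 951 to 1398 and 5055 to 5746. DESeq2 gave 4488, 1058 and 4786, and libraries summed by header name, an alternative chosen after seeing the data, 4571, 1101 and 5409. Over the 14 lists 72 genes rose and 32 fell in the first comparison and 13 rose and 51 fell in the second, and leaving out single libraries gave 65 to 72, 29 to 33, 10 to 14 and 44 to 52. A replicate block gave, over all genes, counts of 5134, 1230 and 5511. In the lists the block gave 72 rising and 33 falling, then 12 and 49. Library totals alone gave 6312, 1363 and 6310 over all genes, and in the lists 85 rising and 23 falling, then 11 and 54. Of the 9 genes, 5 passed with the block in cells against ligation in place of 6, F5 being lost. No pairing of the libraries by number was seen, but 3 libraries per group are too few to exclude it. Deviations of same-numbered libraries from their group means correlated between -0.119 and 0.120. The best correlated library had the same number in 5 of 18 cases. The count of the 9 genes in cells against sham, 7, included Timd4, which dropped out in 8 of 18 alternatives. It was 5 in the fit of only these 2 groups, which Cd5l and Alox15 did not enter for lack of reads. Btla against sham in the cell group, not called, changed sign without sham replicate 2, to 0.64. Of the 479 values 44, and of 54 mean CPM of the 9 genes 6, moved by at least the spread between replicates. Of the 880 values 32 lost their call, and of 1512 counts per list 90 moved by over 1.5 times; the cause was not tested. Depth limits Btla, F5 and Orm1, with a few counts per library.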
